A study of Mus musculus with 4 samples.

Results

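Promoter regions that were open in every library of lymph node (LN) Treg cells were followed here. ATAC-seq marks open chromatin: a transposase inserts adapters where DNA is accessible, and the insertions pile up as peaks. Peaks of the 4 libraries that shared at least 1 bp were merged into 272233 regions. A region was kept when it lay on an autosome, held a peak in all 4 libraries, was under 2000 bp wide and had an edge within 1 kb of a transcription start site (TSS) of a protein-coding gene. This gave 10366 promoter regions, which were 27.0% of the 38426 regions called in all 4 libraries. The regions were selected on the presence of a peak in each library and on merged width and position, so these are not findings.

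The cells were RFP+ Treg cells from LNs of female C57BL/6 mice aged 6 to 8 weeks at steady state, with 50000 sorted cells per library. WT mice gave 2 libraries and Il2ra mut/mut mice gave 2, and the mice of both genotypes carried the Foxp3 Rfp/Rfp reporter. Il2ra mut/mut mice carry a spontaneous tyrosine to histidine point mutation in Il2ra, the alpha chain of the IL-2 receptor (CD25), which arose in a Ccr2-/- colony and was crossed to Ccr2+/+. The mutation lowers surface CD25 and the response to IL-2, so these cells are a model of reduced and not of absent IL-2 signalling. The peak lists hold no readout of the mutated base, so the genotype labels were not checked here. With 2 mice per genotype, every difference between genotypes rests on 2 libraries against 2.

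A promoter is the stretch around the TSS on which RNA polymerase assembles. At genes that most cells use, it is kept free of nucleosomes by general factors such as SP1, NF-Y, NRF1 and ETS proteins, which bind GC boxes, CCAAT boxes and related words, often within CpG islands. IL-2 binds its receptor on Treg cells, JAK1 and JAK3 then activate STAT5, and STAT5 acts at IL-2 response genes such as Il2ra itself, Cish and the Socs genes.

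The bases before the TSS are printed for the 4 highest and the 4 lowest ranked promoter regions, because the word content of promoters moved with their rank. Each stretch holds the 160 bases before the TSS on the strand of the gene, 5′ to 3′, read from the RefSeq genome of GRCm38.p6. Capitals mark any of the 13 transcription factor words described further on, on either strand. Only regions that covered a TSS, held the whole stretch, were at most 50% repeat-masked and overlapped no annotated exon within the stretch were considered. The 4 of highest median percentile were these.
Dnpep (chr1:75317660-75317819, minus strand): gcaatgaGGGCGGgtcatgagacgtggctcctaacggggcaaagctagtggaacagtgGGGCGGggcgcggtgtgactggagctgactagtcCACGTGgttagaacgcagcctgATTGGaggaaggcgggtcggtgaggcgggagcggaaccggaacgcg
Map3k3 (chr11:106084453-106084612, plus strand): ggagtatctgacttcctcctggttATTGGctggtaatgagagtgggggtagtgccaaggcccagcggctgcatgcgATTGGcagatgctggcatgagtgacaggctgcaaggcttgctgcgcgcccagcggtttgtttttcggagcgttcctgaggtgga
Mxd4 (chr5:34187721-34187880, minus strand): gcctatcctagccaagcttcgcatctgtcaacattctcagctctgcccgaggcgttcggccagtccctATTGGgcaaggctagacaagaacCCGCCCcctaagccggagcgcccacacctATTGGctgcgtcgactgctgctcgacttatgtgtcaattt
Stt3a (chr9:36767680-36767839, minus strand): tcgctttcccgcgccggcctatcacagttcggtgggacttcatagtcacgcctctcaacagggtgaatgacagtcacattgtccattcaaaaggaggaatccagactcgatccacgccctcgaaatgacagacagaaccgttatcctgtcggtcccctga
Dnpep encodes an aminopeptidase, Map3k3 a kinase of MAP kinase cascades, Mxd4 a MYC antagonist and Stt3a a subunit of the oligosaccharyltransferase. Stretches of Dnpep, Map3k3 and Mxd4 held a CCAAT box on either strand, while that of Stt3a held none of the words.

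The 4 of lowest median percentile followed the same terms.
Sdk1 (chr5:141856627-141856786, plus strand): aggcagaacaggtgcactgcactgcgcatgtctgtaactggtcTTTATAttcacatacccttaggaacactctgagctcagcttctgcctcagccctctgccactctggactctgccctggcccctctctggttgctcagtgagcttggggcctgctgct
Il7 (chr3:7612894-7613053, minus strand): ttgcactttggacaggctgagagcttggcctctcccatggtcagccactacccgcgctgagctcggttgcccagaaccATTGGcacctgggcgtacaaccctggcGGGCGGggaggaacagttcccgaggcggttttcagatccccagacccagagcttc
Col5a1 (chr2:27886265-27886424, plus strand): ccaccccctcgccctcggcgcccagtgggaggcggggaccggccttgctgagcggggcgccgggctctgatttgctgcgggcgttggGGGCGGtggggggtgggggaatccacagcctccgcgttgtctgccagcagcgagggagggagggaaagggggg
Rorb (chr19:19111197-19111356, minus strand): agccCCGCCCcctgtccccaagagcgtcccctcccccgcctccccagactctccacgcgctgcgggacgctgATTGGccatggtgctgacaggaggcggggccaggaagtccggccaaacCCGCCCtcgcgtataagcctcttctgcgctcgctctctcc
Sdk1 encodes a cell adhesion protein, Il7 a cytokine made by stromal cells, Col5a1 a collagen chain and Rorb an orphan nuclear receptor. The stretches of Il7 and Rorb held a CCAAT box, and those of Sdk1 and Col5a1 did not.

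For the IL-2 pathway, the stretch of Il2ra is given with the 2 of 13 IL-2 pathway stretches that met the same terms and held the STAT5 word, and the other 11 held none. In the 200 bases before the TSS, a longer stretch, the word stood in 4.55% of the promoter regions that covered a TSS. Over all autosomal protein-coding genes it stood in 5.46%.
Il2ra (chr2:11642647-11642806, plus strand): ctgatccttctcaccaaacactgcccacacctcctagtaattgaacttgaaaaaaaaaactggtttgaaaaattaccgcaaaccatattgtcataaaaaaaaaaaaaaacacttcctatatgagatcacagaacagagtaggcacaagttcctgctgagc
Socs3 (chr11:117969187-117969346, minus strand): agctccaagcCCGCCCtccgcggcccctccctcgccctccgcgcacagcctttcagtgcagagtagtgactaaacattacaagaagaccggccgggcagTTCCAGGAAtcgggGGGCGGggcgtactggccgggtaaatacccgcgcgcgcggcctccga
Socs2 (chr10:95416858-95417017, minus strand): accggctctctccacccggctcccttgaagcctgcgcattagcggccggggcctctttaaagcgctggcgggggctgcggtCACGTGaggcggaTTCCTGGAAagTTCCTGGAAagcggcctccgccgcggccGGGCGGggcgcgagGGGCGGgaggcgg
Socs2 and Socs3 encode feedback inhibitors of cytokine signalling. The STAT5 word stood once before Socs3 and at 2 places before Socs2, and none of the words stood in the 160 bases before Il2ra.

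Most promoter regions sat on the TSS itself. Of the 10366 regions, 9213 covered a protein-coding TSS (88.9%, 95% Wilson interval 88.3 to 89.5, which covers counting error only), 113 had their nearer edge 1 to 100 bp away and 1040 had it over 100 bp away. The median summit lay 22 bp upstream of the nearest TSS (position -22), and in the regions that covered a TSS 68.5% of summits lay within 100 bp of it. A single gene had its TSS at 9236 regions, 1101 regions served 2 genes and 29 served 3 or more. TSS on both strands, as at bidirectional promoters, were found at 1036 regions (9.99%, 95% Wilson interval 9.43 to 10.6).

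Just inside the width limit stood the regions of Cd164, Zdhhc14 and Zdhhc5, each 1999 bp wide. Just outside it stood those of Calm2 at 2000 bp and of Frat2 and Brd3 at 2002 bp. At the limit of distance, regions near Cdh10 (1000 bp), CK137956 (999 bp) and Mllt3 (997 bp) were kept. Regions near Gm8126 (1001 bp), Fam214b (1001 bp) and Cytip (1003 bp) were left out. A different region at Fam214b was kept, at a median percentile of 99.1.

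Regions near a TSS were more often called in every library than other regions, a comparison given as a description. Of 17598 autosomal regions near a protein-coding TSS, 11009 were called in all 4 libraries (62.6%, 95% Wilson interval 61.8 to 63.3), against 26624 of the 252118 other autosomal regions (10.6%). Of those 11009, 643 were 2000 bp wide or wider and were left out. A further 4114 regions near a TSS were called in 1 library only, 1426 in 2 and 1049 in 3.

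Strength was described by the within-library percentile of the −log10 p of the strongest peak of a region, which is the share of peaks of that library that ranked lower, with ties split evenly. The median percentile of promoter regions was 92.5 (WT replicate 1), 93.0 (WT replicate 2), 93.1 (Il2ra mut/mut replicate 1) and 94.0 (Il2ra mut/mut replicate 2). For regions called in all 4 libraries that lay in introns of protein-coding genes (n = 10710) these medians were 78.2, 81.0, 78.9 and 81.8 in the same order, and for intergenic regions (n = 9880) they were 75.3, 78.5, 76.4 and 79.7. Promoter regions ranked above both kinds of distal region in each of the 4 libraries. The difference was 13.2 points (SD 1.23, n = 4 libraries) over intronic and 15.7 points (SD 1.45, n = 4 libraries) over intergenic regions. An exact paired permutation test (two-sided) gave p = 0.13 for each, which is the smallest p that 4 libraries allow, so the design cannot reach 0.05.

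**Figure D1:**
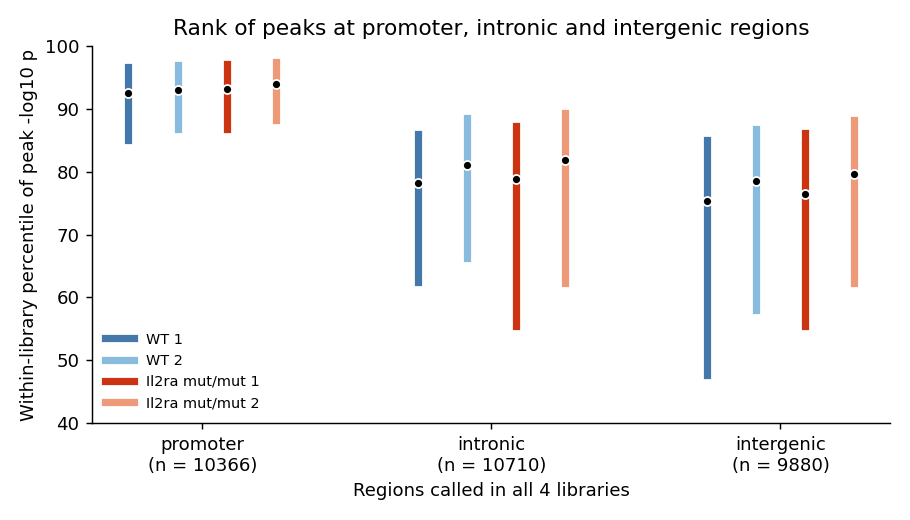
Within-library percentile of the peak −log10 p (y axis) at promoter, intronic and intergenic regions called in all 4 libraries, for each library; dots are medians and bars run from the 25th to the 75th percentile of the regions. Promoter medians lie between 92.5 and 94.0, and the highest median of the distal regions is 81.8.

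In reads, the median promoter region had a pileup at its summit of 32 (WT replicate 1), 45 (WT replicate 2), 42 (Il2ra mut/mut replicate 1) and 39 (Il2ra mut/mut replicate 2) reads. Intronic regions had 12, 16, 14 and 13. Promoter regions made up from 51.4% to 56.3% of the merged regions that reached the top 10% of peaks in a library. They were also wider, with a median merged width of 1015 bp (25th to 75th percentile 762 to 1307 bp) against 638 bp in introns and 649 bp between genes, under the same limit of 2000 bp. Their strongest peak was 348 bp wider than at intronic regions (SD 49.7, n = 4 libraries) and 363 bp wider than at intergenic regions (SD 56.2, n = 4 libraries), wider in 4 of 4 libraries with p = 0.13 in the same exact permutation test.

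Promoter regions differed among themselves. Regions that covered a TSS had a median percentile of 94.0, and the 1153 that covered none had 81.8 and a width of 658 bp. Regions with TSS on both strands stood at 95.8 and 1129 bp, and those with TSS on 1 strand at 92.9 and 999 bp. Split into quartiles of their median percentile, promoter regions widened from 724 bp in quartile 1 to 1225 bp in quartile 4. The median summit moved from 8 bp downstream of the TSS in quartile 1 to position -58 in quartile 4, so that the highest ranked regions had their summits upstream.

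The highest pileups were at Gm10800 and Gm10801, a pair of predicted genes on chromosome 2, where the fold enrichment was 2837 to 3612 and 763 to 1029. Of the bases of these regions 69.5% and 58.1% were repeat-masked, against a median of 6.59% over promoter regions, and reads of near-identical copies cannot be told apart there. The next region, at Map3k3, had a fold enrichment of 135 (WT replicate 1), 183 (WT replicate 2), 138 (Il2ra mut/mut replicate 1) and 145 (Il2ra mut/mut replicate 2). The other regions among the 10 with the highest percentile in their lowest library were those of Dnpep, Usp20, Mxd4, Stt3a, Pnkd, Rab40c and Pja2. At the other end, the regions of Col22a1, Calca, Rorb, Sdk1 and Scyl3 had 6 to 9 reads at the summit in every library, close to the weakest peaks that were called.

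Base composition set promoter regions apart from distal regions. In 200 bp windows at the summit, the median GC content was 64.5% at promoters, 49.0% in introns and 49.5% between genes. CpG dinucleotides reached 0.824 of the number expected from the bases at promoters, and 0.21 and 0.211 at intronic and intergenic regions. Windows with a GC content over 55% and a CpG ratio over 0.65, as in CpG islands, were 67.5% of promoter windows, 1.34% of intronic and 3.09% of intergenic ones. Among the TSS of the 7078 autosomal protein-coding genes with no peak nearby, 10.8% of windows met these terms.

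Words of transcription factors were searched on both strands. The GC box was read as GGGCGG, the CCAAT box as CCAAT, the ETS core as CCGGAAG and the E-box as CACGTG. The TATA box was searched as TATAAA, the RUNX word as TGTGGT and the GATA word as AGATAA. The AP-1 word was TGANTCA, and the STAT5 word, a gamma-activated site (GAS), was TTCNNNGAA, where N is any base. Words of NRF1, YY1, CREB and CTCF were searched as well and are given by name. Words were counted separately, and a base may belong to more than 1 word. A match describes the letters only and is no proof of binding.

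The GC box stood in 58.3% of promoter windows (95% Wilson interval 57.3 to 59.2), in 7.21% of intronic and 8.25% of intergenic ones, and in 40.8% of windows at the TSS of all 20720 autosomal protein-coding genes. The ETS core was found in 16.5% of promoter windows, 2.62% of intronic windows and 9.75% of all TSS windows. The NRF1 word was in 8.33% of promoter windows, 0.215% of intronic windows and 5.41% of all TSS windows. Words of RUNX, AP-1 and GATA factors, which act at many lymphoid enhancers, ran the other way. RUNX was in 8.55% of promoter, 24.6% of intronic and 10.0% of all TSS windows, AP-1 in 3.25%, 10.6% and 4.09%, and GATA in 2.56%, 9.79% and 5.21%. The STAT5 word was in 4.02% of promoter windows, 6.75% of intronic windows and 4.76% of all TSS windows. The TATA box was in 2.5% of promoter windows, 8.05% of intronic windows and 8.18% of all TSS windows.

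The CCAAT box, the word of NF-Y, was in a larger share of windows at each higher quartile of rank. It stood in 17.6% of windows in quartile 1 (95% Wilson interval 16.2 to 19.1), 19.8% in quartile 2, 30.6% in quartile 3 and 54.2% in quartile 4 (52.3 to 56.1). Over all TSS it was in 28.0% of windows, so quartiles 1 and 2 lay under that share and quartiles 3 and 4 above it. The GC box went from 44.8% in quartile 1 to 70.1% in quartile 4, while the ETS core and NRF1 were highest in quartile 3 at 20.7% and 11.8%. The median GC content was 63.0% in quartile 1 and 64.0% in quartile 4. Because the summit also moved with rank, the 200 bases before the TSS were read as well, in regions that covered a TSS (chosen after the first result was seen). There the CCAAT box was in 21.1% of quartile 1 and 52.3% of quartile 4, and in 31.2% before the TSS of all autosomal protein-coding genes. Regions with a CCAAT box at the summit (n = 3167) had a median percentile of 96.5 and those without one 91.7.

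**Figure D2:**
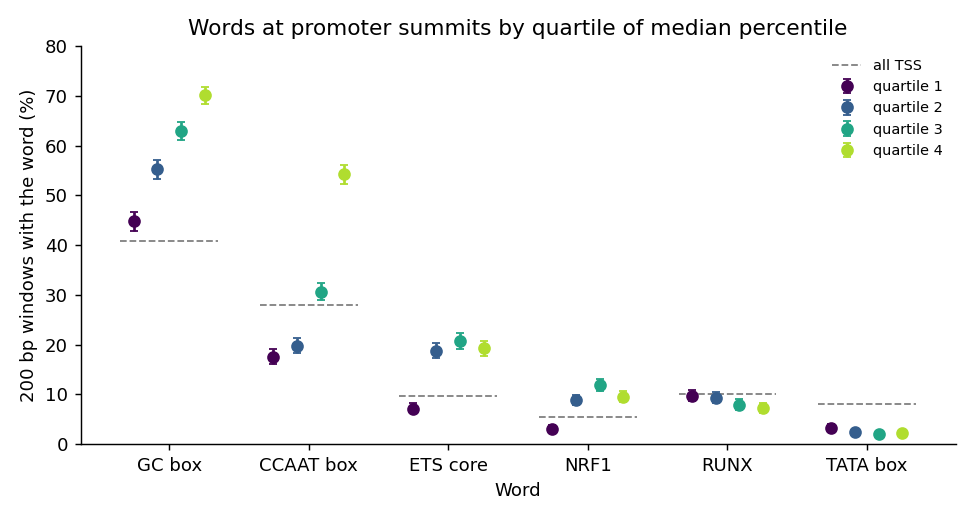
Share of 200 bp summit windows of promoter regions that hold each word (y axis, percent), by quartile of the median percentile over the 4 libraries; bars are 95% Wilson intervals and dashed lines give the share at the TSS of all autosomal protein-coding genes. The CCAAT box goes from 17.6% in quartile 1 to 54.2% in quartile 4.

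Of 20720 autosomal protein-coding genes, 10327 (49.8%) had a promoter region called in all 4 libraries, 641 had only a region of 2000 bp or wider, 2674 had a region called in 1 to 3 libraries and 7078 had none. By chromosome the share with a promoter region ran from 40.1% on chromosome 7 to 57.9% on chromosome 12. More than 1 promoter region was found at 1064 genes, with up to 6 at a gene.

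Genes of basic cell functions almost all had such a region. It was present at 35 of 35 aminoacyl-tRNA synthetases, which charge tRNAs, at 8 of 8 subunits of the chaperonin CCT and at 13 of 13 MCM and ORC proteins of DNA replication. Ribosomal proteins followed with 75 of 79, mitochondrial ribosomal proteins with 75 of 78, proteasome subunits with 36 of 38, respiratory chain genes with 84 of 91, spliceosomal proteins with 41 of 45 and genes named Eif, mostly translation initiation factors, with 47 of 52. Median percentiles of these lists lay between 94.3 (mitochondrial ribosomal proteins) and 97.9 (MCM and ORC proteins), beside 94.2 over all genes with a region. The lowest MCM or ORC promoter, that of Orc3, stood at 94.6, 96.1, 95.9 and 96.5 in WT replicates 1 and 2 and Il2ra mut/mut replicates 1 and 2, and the highest, that of Mcm4, at 99.4, 99.1, 99.3 and 99.2. The other lists reached lower. The lowest median percentile of a gene was 68.8 in mitochondrial ribosomal proteins and 71.5 in respiratory chain genes. It was 83.0 (chaperonin CCT) to 88.1 (aminoacyl-tRNA synthetases) in the remaining lists of basic functions, against 96.0 in MCM and ORC proteins.

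Families used in other tissues were mostly without one. Of 1127 olfactory receptors 9 had a promoter region (0.799%), of 326 vomeronasal receptors 2, of 49 keratins 2, of 39 Hox genes 7 and of 92 potassium channels 21. Zinc finger genes of the Zfp series had one at 288 of 385 genes, histone genes at 53 of 69 and solute carriers at 164 of 372. These shares counted genes and not expression, and an open promoter does not show that its gene is transcribed.

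**Figure D3:**
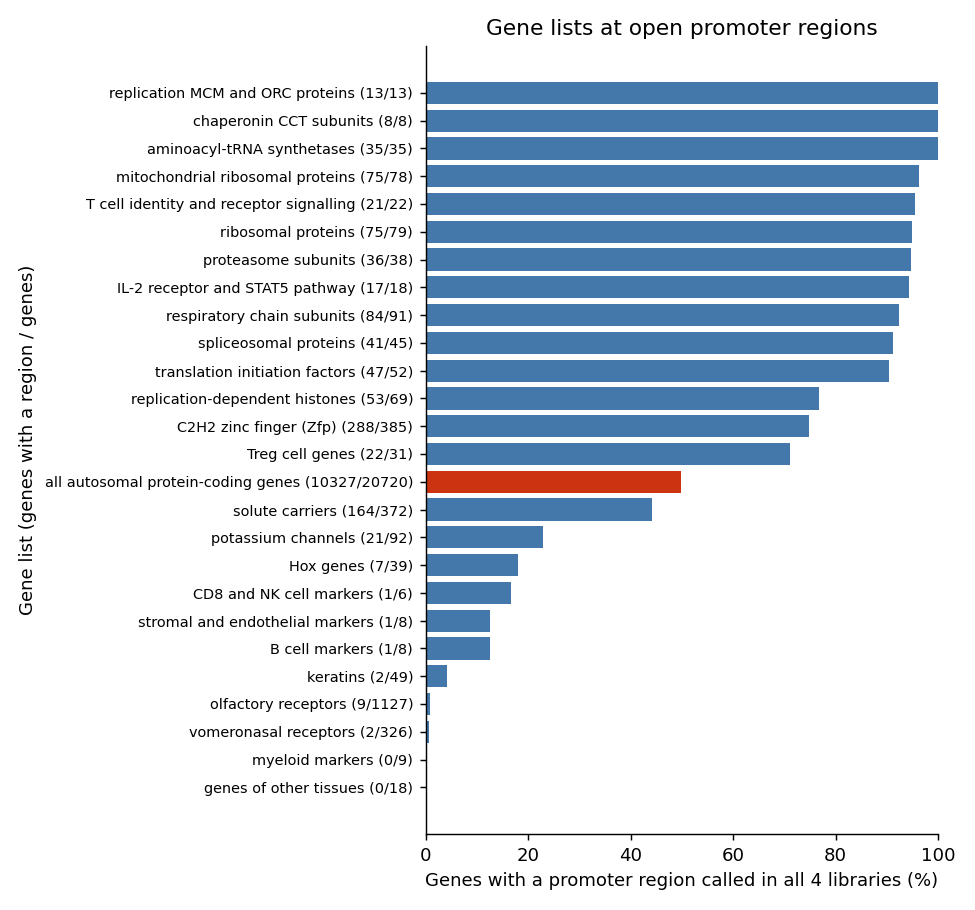
Percent of the genes of each list with a promoter region called in all 4 libraries (x axis, bars from 0), with the number of genes in brackets; the red bar is all autosomal protein-coding genes at 49.8%. Lists of basic cell functions stand above 90% and olfactory and vomeronasal receptors under 1%.

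The cell type given by the labels was checked by its markers. Of 22 genes of T cell identity and T cell receptor signalling, 21 had a promoter region. Of 31 autosomal genes known in Treg cells, 22 had one, among them Ctla4 and Icos, costimulatory family receptors, and Ikzf2, which encodes the factor Helios. Foxo1, Bach2, Klf2, Maf and Nrp1 had only regions of 2000 bp or wider, Gzmb and Ebi3 had regions in 1 to 3 libraries, and Il10 and Klrg1 had none. Foxp3 lies on the X chromosome and is outside the rule.

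Markers of other cells were mostly absent: 0 of 9 myeloid markers, 1 of 8 B cell markers, 1 of 6 CD8 and NK cell markers, 1 of 8 stromal and endothelial markers and 0 of 18 genes of other tissues had a promoter region. Regions called in 1 to 3 libraries were found at 1 of the B cell, 2 of the myeloid, 1 of the CD8 and NK cell, 3 of the stromal and endothelial markers and 5 of the genes of other tissues. No peak near a TSS in any library was found at 6, 7, 4, 3 and 13 genes of these lists, among them Cd79a, Ms4a1, Cd8a, Ncr1, Itgam and Lyz2. The exceptions were Ebf1 at percentiles of 26.6, 74.5, 39.1 and 25.3, Cd8b1 in a region shared with Smyd1, and Col1a1 with 21 and 41 reads in WT against 37 and 28 in Il2ra mut/mut. Ebf1 values are in the order of WT replicates 1 and 2 and Il2ra mut/mut replicates 1 and 2. Pecam1 had a region of 2000 bp or wider. Promoter peaks show that chromatin was open and do not count cells of a type.

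The order of promoter regions was nearly the same in all libraries. The Spearman coefficient of percentiles over the 10366 regions was 0.961 between the WT replicates and 0.965 between the Il2ra mut/mut replicates, and it lay between 0.953 and 0.958 in the 4 pairs across genotypes. Both within-genotype coefficients were above all 4 between-genotype ones, by 0.0081 on average (0.963 against 0.955). Coefficients are over regions of shared libraries, so no p is given. In intronic regions the mean was 0.820 within and 0.788 between genotypes, but the pair of WT replicate 2 and Il2ra mut/mut replicate 2 reached 0.823, above both within-genotype pairs. The same pair was highest in intergenic regions, at 0.797.

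Within narrower ranges of rank the coefficients were lower. Within quartiles of the median percentile, the mean coefficient was 0.594 within and 0.517 between genotypes in quartile 1, 0.541 and 0.446 in quartile 2, 0.607 and 0.517 in quartile 3, and 0.878 and 0.850 in quartile 4. Within-genotype pairs were above all between-genotype pairs in each of the 4 quartiles. Of the 1000 highest promoter regions of each library, the WT replicates shared 859, the Il2ra mut/mut replicates 872 and the pairs across genotypes 837 to 848, and 733 were shared by all 4. Summits were placed 35 to 39 bp apart at the median in pairs of libraries, against 51 to 58 bp in introns and 56 to 62 bp between genes.

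**Figure D4:**
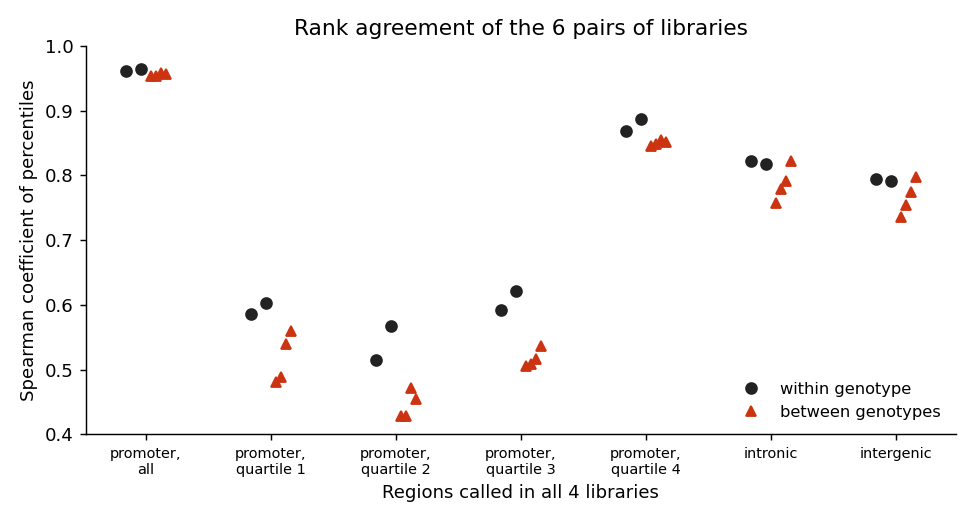
Spearman coefficient of within-library percentiles (y axis) for the 6 pairs of libraries, over all promoter regions, their quartiles of median percentile, and intronic and intergenic regions called in all 4 libraries; circles are the 2 pairs within a genotype and triangles the 4 pairs between genotypes. Over all promoter regions the circles stand at 0.961 and 0.965 and the triangles between 0.953 and 0.958.

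No promoter region passed the test between genotypes. With limma on quantile-normalised log2 fold enrichment over the 38426 regions called in all 4 libraries, 0 of 10366 promoter regions had a Benjamini-Hochberg adjusted p under 0.05, and 0% of all regions did. The smallest adjusted p was 0.582. At an unadjusted p under 0.05, 445 promoter regions were higher in Il2ra mut/mut (4.29%, beside 4.18% of all regions) and 367 lower (3.54%, beside 4.37%). These shares lay near those of all regions. In bulk libraries, fewer cells with an open promoter and less opening per cell cannot be told apart. Median scaling in place of quantile normalisation called 26 higher (0.251%, beside 0.37% of all regions) and 32 lower (0.309%, beside 0.458%), in all 58 (0.56%, beside 0.828%). The probit of the percentile called 2 higher (0.0193%, beside 0.0364%) and 0 lower (beside 0.013%), and 0.0494% of all regions in either direction. Those 2, named after their values were seen, were Pcyox1l, with 29 and 28 reads in WT against 65 and 63 in Il2ra mut/mut, and Dcbld2, with 45 and 43 against 84 and 87.

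Differences were small at most promoters. The absolute log2 difference was under 0.5 in 93.3% of promoter regions and over 1 in 22 of them (0.212%), while 0.906% of intronic and 0.779% of intergenic regions passed 1. The distal regions had fewer reads, with median pileups of 11 to 16 by library against 32 to 45 at promoter regions. Whether read number made these shares differ was not tested. Of quartile 1, the weakest promoters, 14.4% passed 0.5, and of quartile 4 1.0% did. A region that lacked a called peak in any of the libraries could not enter, so a promoter without a called peak in either genotype is not counted here.

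By percentile, both Il2ra mut/mut libraries stood above both WT libraries at 3112 promoter regions (30.0%, beside 26.2% of all regions), and both WT libraries above both Il2ra mut/mut libraries at 1072 (10.3%, beside 12.6%). By quantile-normalised log2 fold enrichment these counts were 2100 (20.3%, beside 18.2%) and 1785 (17.2%, beside 17.5%). The excess of the first direction thus depended on the scale. Percentiles were taken within lists of unequal length, 112569 and 126761 peaks in WT against 122776 and 142732 in Il2ra mut/mut. Median percentiles over all regions called in all 4 libraries followed list length, at 81.9 and 84.5 in WT against 84.0 and 86.3 in Il2ra mut/mut. Whether list length made the excess was not tested, and percentiles of single genes carry the same limit. Gaps of over 10 points were found at 82 promoter regions in the first direction (0.791%, beside 4.04% of all regions) and 89 in the second (0.859%, beside 2.48%). Promoter regions lay nearer the top of the percentile scale, which leaves less room for such gaps. Their lower quartile was 85.1 to 88.2 by library, against 62.4 to 71.4 over all regions. The shares with such gaps are therefore not on an equal footing.

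The widest gaps were at regions of few reads. At Pde7b, a cAMP phosphodiesterase, the summit had 6 and 7 reads in WT against 13 and 11 in Il2ra mut/mut (log2 difference 0.71, SE 0.19, limma adjusted p = 0.582). Fam124a, AI593442, Shisa6 and F3, the gene of tissue factor, also ranked higher in both Il2ra mut/mut libraries, with 5 to 7 reads in WT and 11 to 14 in Il2ra mut/mut. In the other direction, Tmem108 had 12 and 15 reads in WT against 8 and 7 in Il2ra mut/mut (log2 difference -0.83, SE 0.20, limma adjusted p = 0.582). Zfhx3, P2ry2, Pstpip2 and Ccr6, a chemokine receptor, were the others, with 9 to 17 reads in WT and 5 to 8 in Il2ra mut/mut. None of these 10 passed the test.

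The rule requires a peak in all 4 libraries, so each promoter region of the IL-2 receptor and STAT5 pathway was called in both genotypes. Of the 18 autosomal genes of this pathway, 17 had a promoter region (94.4%, beside 49.8% of all autosomal protein-coding genes). Their median percentile was 95.4 beside 94.2 over all genes with a region. Socs1 had only a region of 2000 bp or wider. None of the 17 passed the test. At 5 of the 17 genes both Il2ra mut/mut libraries ranked above both WT libraries by percentile, and at 3 both WT libraries ranked above. Over the 10327 genes with a region these counts were 3186 and 1040. At an unadjusted p under 0.05 stood 3 of the 17, beside 821 of the 10327 genes with a region (7.95%) and 8.55% of all regions tested, and the median log2 difference of the list was 0.048 beside 0.016 over all genes with a region.

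Il2rb, the signalling beta chain, stood at percentiles of 99.4 and 99.3 in WT against 99.2 and 99.3 in Il2ra mut/mut. The promoter of Il2ra itself (GRCm38, chr2:11642265-11643330, covering the TSS) stood at 94.6 and 95.1 in WT against 89.8 and 91.2 in Il2ra mut/mut. Both Il2ra mut/mut libraries were below both WT libraries there. The pileup at the Il2ra summit was 41 and 58 reads in WT against 29 and 27 in Il2ra mut/mut, a log2 difference of -0.83 (SE 0.17, n = 2 libraries against 2). In the limma fit this had an unadjusted p = 0.00191 and an adjusted p = 0.582, so it did not pass. Over the alternatives its adjusted p ran from 0.0297 with median scaling to 0.656 with a replicate block, and its log2 difference was negative in each.

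Kinases and STAT proteins stood on both sides of the median over all genes with a region. Jak1 was at 97.0 and 97.7 in WT against 97.9 and 97.7 in Il2ra mut/mut, and Jak3 at 90.4 and 90.2 against 90.1 and 94.0. Stat5a stood at 99.4 and 99.2 against 99.3 and 99.3, a log2 difference of -0.03 (SE 0.12). The log2 differences of Jak1 and Jak3 were 0.07 and 0.17, and none of these 3 promoters passed the test. Stat5b was at 95.1 and 95.1 in WT against 92.3 and 93.8 in Il2ra mut/mut, with 44 and 58 reads against 38 and 38 (log2 difference -0.47, SE 0.16, limma adjusted p = 0.582). Its groups did not overlap.

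Among feedback inhibitors, Socs3 was at 95.3 and 96.1 in WT against 97.6 and 97.9 in Il2ra mut/mut, with 45 and 67 reads against 83 and 78 (log2 difference 0.44, SE 0.13, limma adjusted p = 0.582). Cish was at 92.5 and 93.9 against 92.1 and 94.0, and Socs2 at 75.3 and 87.7 against 84.0 and 89.3, so both overlapped between genotypes. Of the survival and growth genes, Bcl2, Mcl1, Bcl2l1, Myc, Pim1 and Ccnd2 had log2 differences from -0.22 (Myc) to 0.31 (Pim1). Ccnd2, a cyclin of G1 phase, had the lowest rank of the list, at 62.4 and 81.0 in WT against 66.2 and 79.7 in Il2ra mut/mut.

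**Figure D5:**
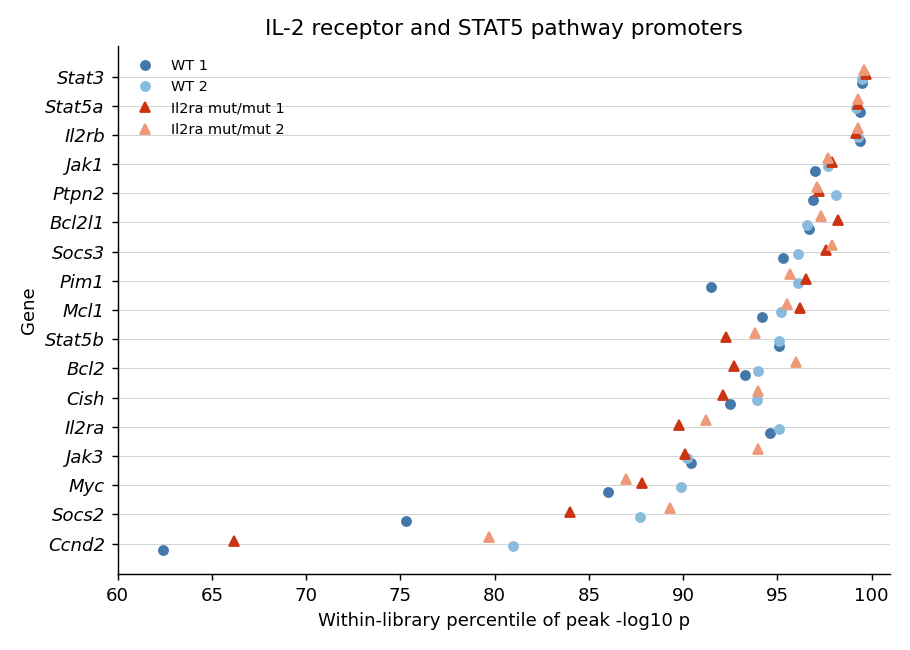
Within-library percentile of the peak −log10 p (x axis, from 60) at the promoter region of highest median percentile of each of the 17 genes of the IL-2 receptor and STAT5 list, ordered by median; circles are the 2 WT libraries and triangles the 2 Il2ra mut/mut libraries. At Il2ra and Stat5b both circles lie to the right of both triangles, and at Socs3, Stat3, Bcl2l1 and Mcl1 to the left. At Il2rb (WT higher) and Jak1 (Il2ra mut/mut higher) the groups are also apart, by less than the rounding of the plotted values.

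None of the 22 Treg cell genes with a promoter region passed the test. Their median log2 difference was -0.108, beside 0.016 over all genes with a region, and the list itself was not tested. At an unadjusted p under 0.05 stood 2 of 22, Cd80 and Lef1, a share near the 7.95% of all genes with a region. Cd80, a ligand of CD28 and CTLA-4, was at 47.7 and 66.3 in WT against 84.8 and 88.8 in Il2ra mut/mut, with 8 and 10 reads against 19 and 21 (log2 difference 1.0, SE 0.25, limma adjusted p = 0.582). Lef1, a factor of resting T cells, was at 94.2 and 95.7 against 92.9 and 93.5 (log2 difference -0.43, SE 0.16, limma adjusted p = 0.582). Ctla4 had a log2 difference of 0.03 (SE 0.16), Icos of -0.05 (SE 0.15) and Satb1, a chromatin organiser, of -0.23 (SE 0.23).

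Among T cell identity genes, 0 of 21 passed the limma test and 0 of 21 had an unadjusted p under 0.05. Cd4 came nearest, at 83.2 and 83.8 in WT against 76.4 and 71.4 in Il2ra mut/mut, with 15 and 19 reads against 13 and 10 (log2 difference -0.57, SE 0.25, limma adjusted p = 0.59). Cd8b1, a marker of CD8 T cells outside this list, stood at 84.2 and 84.5 in WT against 66.2 and 76.5 in Il2ra mut/mut. Its log2 difference was -0.71 (SE 0.24, limma unadjusted p = 0.0237, adjusted p = 0.582), so it did not pass. Cd3e, Cd3g and Cd28, parts of the T cell receptor complex and its costimulation, had log2 differences of -0.11, 0.12 and 0.04.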

How the data were processed

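ATAC-seq peaks of 4 libraries of LN Treg cells were analysed, 2 per genotype. Per the submitters' processing notes and the paper's methods, the authors trimmed reads with Trim Galore (0.3.7), aligned them to mm10 with BWA mem (0.7.13), removed duplicates and mitochondrial reads with Picard (1.92) and SAMtools (0.1.19), shifted the reads and called peaks per library with MACS2 (2.1.0). The deposited lists give, for each peak, fold enrichment as a ratio to background, the −log10 p-value and −log10 q-value, and a score that was not used here. They hold 112569 to 142732 peaks per library and no read totals, so depth is unknown. Fold enrichment was a whole number of reads plus 1 over a constant background of 0.974 to 1.23 reads plus 1, with values at most 1.3e-04 from a whole read. Pileups in the text are reads recovered in this way, and the median over all peaks was 8 to 10.

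Start sites of every protein-coding transcript were taken from GENCODE M21 (basic set, GRCm38, the same assembly as mm10). Intronic and intergenic regions had the same limits, lay over 1 kb from any TSS, and overlapped a protein-coding gene but no exon (intronic) or no gene (intergenic). Genotypes were compared with limma (3.58.1, R 4.3.3) with a mean trend on quantile-normalised log2 fold enrichment at the strongest peak over all regions called in all 4 libraries, since the values are ratios and not counts. Kinds of region were compared by exact sign flips over libraries, and the other values are descriptions. The scripts were tested on made-up data, where 16 of 16 checks came out as set. Bases came from RefSeq GRCm38.p6. Python (3.11.15), numpy (2.4.6), pandas (2.3.3), scipy (1.17.1) and matplotlib (3.10.9) were used.

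The members, gene lists and words were chosen with earlier results of these data known. Named are the 10 regions whose lowest percentile was highest, the 5 whose highest was lowest, any region called by the test (at most 10 per direction), the 5 with the widest gap per direction, the pathway and marker genes, the 3 regions on each side of each limit, and the highest and lowest of each gene class, of which those of the MCM and ORC class are printed. The 8 ranked stretches and the STAT5 examples follow the terms stated beside them. Where a gene had several regions, that of highest median percentile is given. Groups came from the labels. Alternatives were a −log10 q floor of 3, peak lists cut to 1 size, another merge, other TSS distances and annotations, no width limit, the widest peak, other scalings, no trend, a replicate block, a filter at a median percentile of 50, 100 bp windows and leaving out each library.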

Additional observations from a re-analysis of the deposited data

How the results depend on the processing

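The number of promoter regions stayed within 9213 (regions that cover a TSS) and 11009 (no width limit) over the 12 alternatives, and without 1 library at a time it was 10683 to 11006. Promoter regions ranked above and were wider than intronic and intergenic regions under each alternative run. The cause of the changes given here was not tested.

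In the test between genotypes, median scaling called 58 promoter regions (0.56%, beside 0.828% of all regions) and the probit of the percentile 2 (0.0193%, beside 0.0494%), in place of 0. In the median scaling fit, the promoter region with the smallest limma adjusted p, Gm11168 (7.4e-06), rested on a single library. It had 41 reads in Il2ra mut/mut replicate 2 against 130 to 135 in the others. The fit with no trend, the filter at a median percentile of 50 and the replicate block (smallest limma adjusted p = 0.656) each called 0. Libraries of the same number did not deviate together (r = 0.00342 over promoter regions), which cannot show whether the mice were paired. Without 1 library, each fit called 0, assuming that the lone library varies like the others. The 10 widest gaps and Il2ra kept their direction under each setting that could be run. The filter at a median percentile of 50 left out Shisa6, F3, Zfhx3, Pstpip2 and Ccr6.

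The advantage of within-genotype over between-genotype agreement ranged from 0.0052 (without Il2ra mut/mut replicate 2) to 0.0118 (without WT replicate 2), and was 0.0082 by Pearson's coefficient. Regions with both WT libraries above numbered 1785 by log2 fold enrichment.

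In 100 bp windows the CCAAT box was in 21.7% of all promoter windows, 10.3% of quartile 1 and 42.1% of quartile 4, the GC box in 39.0%, 29.6% and 46.3%, and the ETS core in 9.96%, 4.28% and 10.3%. In the 200 bases before the TSS, an alternative chosen after seeing the data and limited to the 9213 regions that cover a TSS (1810 of them in quartile 1), the CCAAT box was in 32.9% of all these and 21.1% of quartile 1, the GC box in 60.4% of all and 54.7% of quartile 1, and the ETS core in 14.3% of all and 16.2% of quartile 4. With a distance limit of 500 bp, Col1a1 was no longer counted and 1 vomeronasal receptor gene remained.

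From 3.07% to 6.8% of promoter regions had under 10 reads at the summit in a library, and the depth itself is unknown. With 2 libraries per genotype, a difference that missed the threshold is not shown to be absent.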
